A study of Mus musculus with 9 samples.

Results

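The transcripts of 34 genes of cholesterol and fatty acid synthesis were examined in mouse kidney. The genes were taken by symbol from tables of 52636 genes. All 34 were found, and all 34 passed the filter on low counts, which left 17114 genes for testing. They comprise 17 enzymes of the cholesterol route, 5 regulators, 1 sterol transfer protein and 11 enzymes that make, lengthen or desaturate fatty acids.

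Total kidney RNA was sequenced in 9 libraries, 3 from wild-type mice (WT) and 3 each from mice with knock-in allele C59A or C59S of Nfkb1. Nfkb1 encodes the precursor of the NF-kB subunit p50, and both alleles replace its codon for a cysteine of the DNA-binding region. The labels call C59A activated and C59S inactivated. The design text describes both new codons as encoding alanine and orders the effects on DNA binding the other way round, so no direction of NF-kB activity is attached to either allele here. Both alleles carry a PGK-neo selection cassette in a nearby intron, are germline changes not limited to a cell type, and were made in C57BL/6NTac-derived embryonic stem cells injected into C57BL/6 blastocysts. Age, sex, litter, batch and the number of altered allele copies per animal were not given in the sources used here. Nothing in the labels ties each replicate to an animal of its own, and the p-values cover the spread of these libraries alone, which could be technical. The study's question was how altered NF-kB activity affects the kidney.

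Cells build cholesterol from acetyl-CoA through the mevalonate arm, which ends in farnesyl diphosphate, and then through squalene and a series of sterols. Fatty acids are built from the same acetyl-CoA by carboxylation and by fatty acid synthase, which draws on NADPH, and are then elongated and desaturated. Both routes are controlled by the SREBP transcription factors: SCAP carries them to the Golgi for cleavage when sterols are low, and INSIG proteins hold them in the endoplasmic reticulum when sterols are high. In the kidney these routes supply membranes of the tubule epithelium, and fatty acids are also a main fuel of the proximal tubule.

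Levels are given as CPM, in which each library's total, scaled by edgeR's TMM factor, is set to 1e+06. Total counts ran from 16367403 to 25787659 per library, and 3 counts corresponded to 0.112 to 0.202 CPM. Kidney markers were present in all libraries, but the levels of many differed between the groups. Those of the thick ascending limb overlapped, summing to 1020 to 1370 CPM in WT, 874 to 2230 in C59A and 914 to 2020 in C59S. The 5 proximal tubule markers summed to 8500 to 9010 CPM in WT, 5380 to 7740 in C59A and 4500 to 6220 in C59S, mostly from Slc34a1. They did not move together. Slc5a2 was at 475 to 692 CPM in WT, 154 to 249 in C59A and 211 to 332 in C59S. Slc22a6 was at 363 to 393 CPM in WT, 506 to 918 in C59A and 253 to 378 in C59S. Slc7a13 was at 1.01 to 2.81 CPM in WT, 453 to 527 in C59A and 0.541 to 1.15 in C59S. In the distal convoluted tubule Slc12a3 was at 1980 to 3300 CPM in WT, 796 to 1290 in C59A and 1260 to 1430 in C59S, and Pvalb averaged 68.7, 26.6 and 68.8 CPM. The markers of intercalated cells summed to 208 to 272 CPM in WT, 100 to 143 in C59A and 161 to 197 in C59S, and those of podocytes to 127 to 203, 66.3 to 126 and 152 to 237 CPM. Endothelial markers summed to 67 to 162 CPM in WT, 108 to 115 in C59A and 160 to 257 in C59S. Of the principal cell markers, Aqp2 averaged 220, 478 and 460 CPM in WT, C59A and C59S, and Scnn1b 74.2, 43.9 and 61.1 CPM. The part of these shifts in the results below was not tested. The mitochondrial share of counts was 16.4% to 19.6% for WT, 20.8% to 28.8% for C59A and 20.5% to 40.6% for C59S. The 3 C59A libraries held Y-linked transcripts (Ddx3y at 43.2 to 46.9 CPM) and almost no Xist (0.191 to 0.725 CPM), whereas the WT and C59S libraries held Xist at 816 to 1280 CPM. This is the pattern of male C59A libraries beside female WT and C59S libraries, although the labels give no sex. In every comparison with C59A, including the markers above, the allele and this sex difference therefore cannot be told apart. Adipocytes and adrenal cortex are rich in many of the 34 transcripts, so their markers were summed by library. The 9 adipocyte markers summed to 40.3 to 77.5 CPM in WT, 174 to 385 in C59A, and 163, 879 and 1560 in C59S. Fabp4 alone gave 26.9 to 62.9 CPM of these sums in WT, 123 to 160 in C59A and 149 to 650 in C59S. In C59A replicate 2, Cfd, Plin1, Plin4 and Retn lay within the WT ranges and Car3 below its range. Adipoq, Cidec, Lep and Fabp4 lay above theirs there, so the sum does not show that all markers rose. Adipoq was at 0 to 0.0503 CPM in WT, at 0.17 to 15.8 in C59A, and at 0.224, 42.3 and 39.8 in C59S. The 6 adrenal cortex markers summed to 129 CPM in C59S replicate 2 and to 3.1 to 6.15 in the other 8 libraries, where Cyp11b1 was at 0. In bulk kidney RNA, fewer cells of a type and less RNA per cell cannot be told apart.

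**Figure D1:**
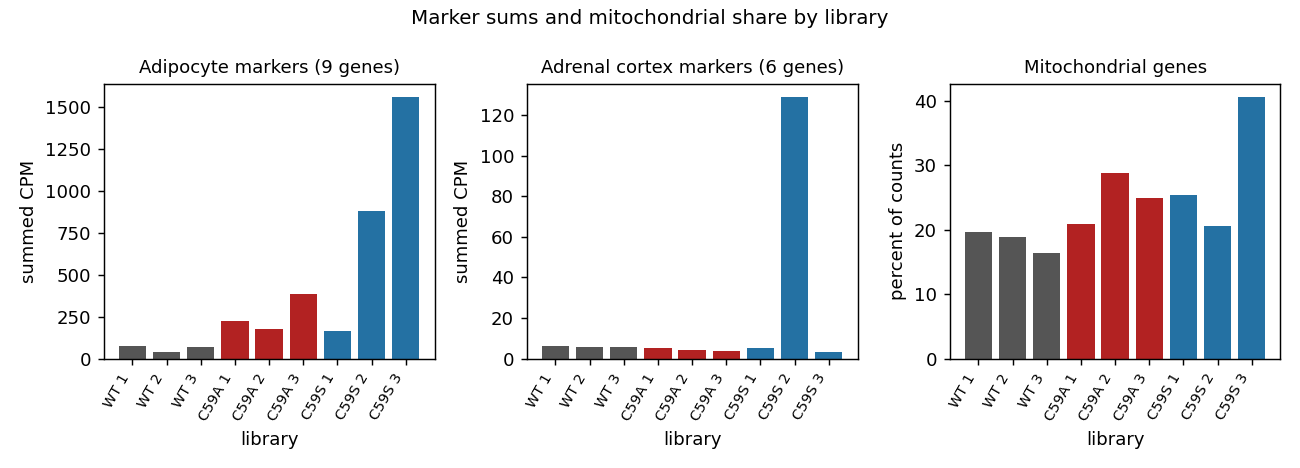
Summed CPM of adipocyte and adrenal cortex markers and the percentage of counts from mitochondrial genes, with 1 bar per library coloured by genotype. C59S replicates 2 and 3 hold the highest adipocyte sums (879 and 1560 CPM), C59S replicate 2 holds the adrenal markers (129 CPM), and C59S replicate 3 has the highest mitochondrial share (40.6%).

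In C59A kidneys 4 genes of the pathway changed against WT, in both directions. Hmgcs1, the HMG-CoA synthase at the start of the mevalonate arm, and Me1, a source of NADPH, rose, while the elongase Elovl6 and the regulator Srebf2 fell. In C59S kidneys no gene of the pathway passed the test against WT. Between the alleles, Hmgcs1 and Me1 were higher in C59A, and Elovl6 and Fdft1, the squalene synthase, were lower. A gene was called when edgeR's quasi-likelihood test gave it a Benjamini-Hochberg adjusted p under 0.05 over all 17114 genes.

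In C59A against WT, 4 of the 34 genes (11.8%) were called, 2 higher and 2 lower, beside 5.7% of all genes tested. The shares of all genes were 3.24% higher and 2.46% lower. With library totals alone in place of TMM factors, 216 genes were higher and 863 lower instead of 554 and 421, and 2 of the 34 were higher and 4 lower. Of the 34 fold changes 24 were negative, with a median of -0.15 on the log2 scale, while 52.4% of all genes were negative with a median of -0.02. In C59S against WT, 0 of 34 genes were called, beside 0% of all genes by edgeR. At an unadjusted p under 0.05 there were 4 of the 34, beside 18.1% of all genes. DESeq2 called 636 genes in that comparison and none of the 34, and limma on FPKM called none of the 34. Without WT replicate 3, edgeR called 737 genes, again none of the 34. Same-numbered WT and C59S libraries deviated together, though the labels give no pairing and it remains uncertain. A fit of these 6 libraries with the replicate number as a block called 638 genes and none of the 34. In C59A against C59S, 4 of 34 (11.8%) were called, beside 5.91% of all genes. Of these 2 were higher, beside 3.35% of all genes, and 2 lower, beside 2.56%. Library totals alone gave 315 genes higher and 355 lower between the alleles instead of 574 and 438. In that comparison 21 of the 34 fold changes were negative, beside 51% of all genes. The count of 4 became 7 without C59S replicate 1 and 2 without C59A replicate 3, C59S replicate 2 or C59S replicate 3. These comparisons share libraries: the C59A libraries enter the first and the last, so the calls of Hmgcs1, Me1 and Elovl6 in both are not independent.

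**Figure D2:**
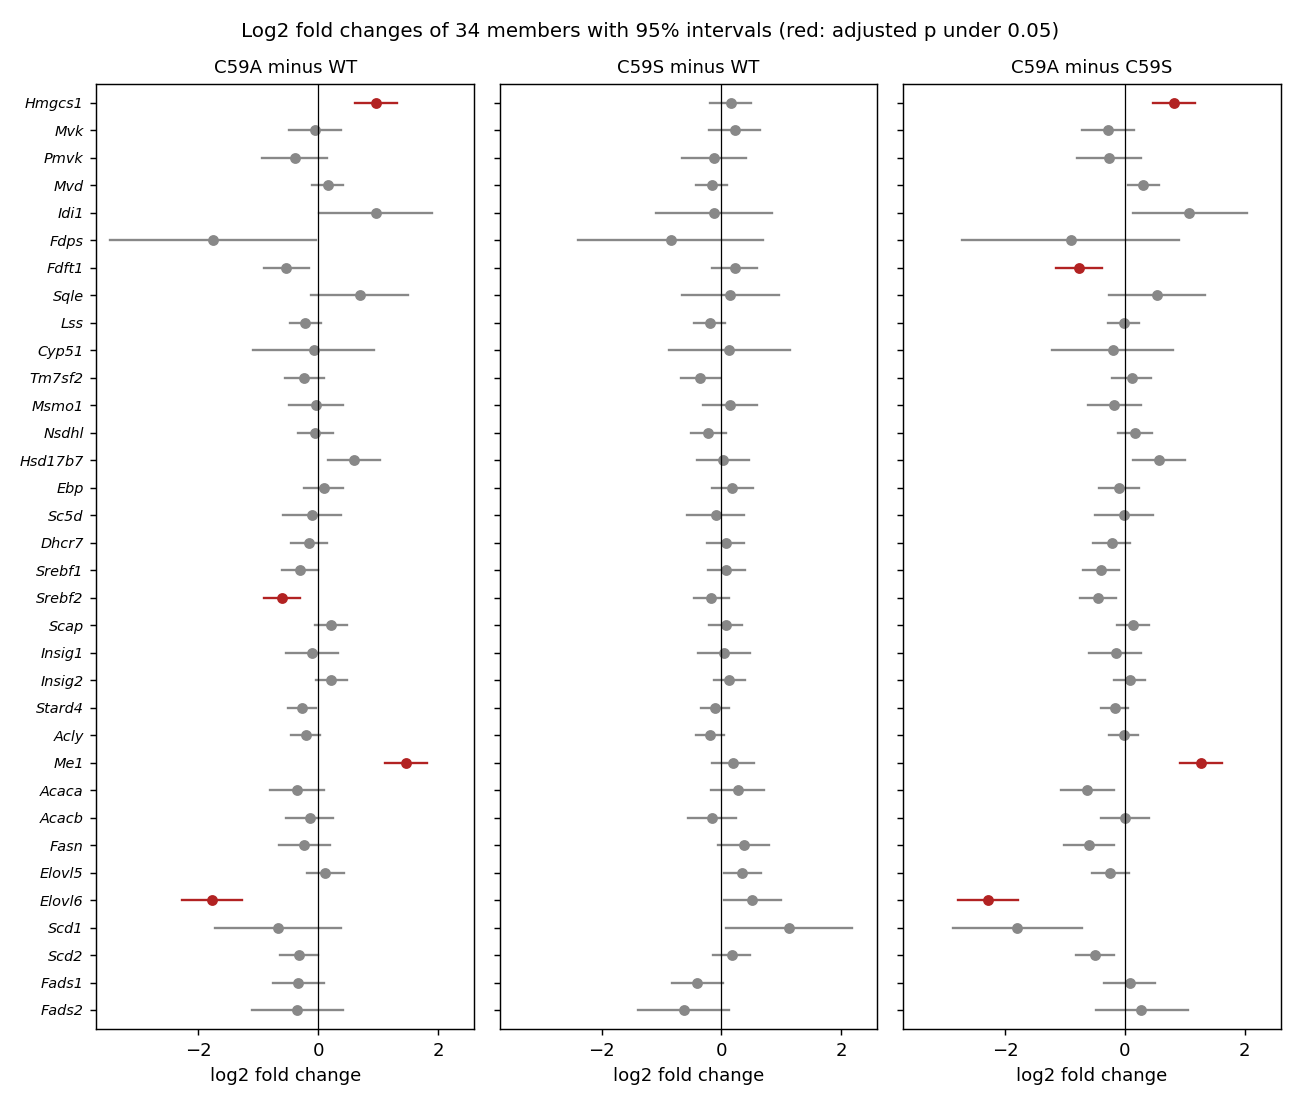
Log2 fold changes of the 34 genes in the 3 comparisons, on the x axis, with 95% intervals as bars. Genes with an adjusted p under 0.05 are red: 4 in C59A versus WT, 0 in C59S versus WT and 4 in C59A versus C59S. The intervals of Fdps, Idi1, Scd1, Cyp51 and Sqle are among the widest.

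The order of transcript levels in WT is best read per length, as FPKM. Hmgcs1 was the most abundant of the 34 at 48.1 ± 5.51 FPKM (SD, n = 3). Scd1 at 32.1 ± 24.4, Ebp at 27.4 ± 2.49, Me1 at 24.3 ± 3.45, Cyp51 at 23.6 ± 15.3 and Mvd at 23.1 ± 1.57 FPKM followed. Among these most abundant genes, neighbours in the order overlapped. Each Ebp value (24.7 to 29.6 FPKM), however, lay above each Mvd value (21.4 to 24.5). The lowest were Acaca (1.09 ± 0.111), Idi1 (0.298 ± 0.149) and Fdps (0.149 ± 0.0608 FPKM). In C59A Hmgcs1 at 95.4 ± 14.8 and Me1 at 68 ± 10.7 FPKM headed the order. In C59S Scd1 at 70.8 ± 8.4 FPKM stood first, with Hmgcs1 at 54.1 ± 5.72 next.

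Promoter sequences from RefSeq (build GRCm38.p6) were found for 27 of the 34 genes, each running from 250 bases before to 50 bases after the transcription start. The promoters of Hmgcs1, Me1 and Elovl6, the genes called in both comparisons with C59A, are shown 5′ to 3′ on the coding strand. Capitals mark matches, on either strand, to the sterol regulatory element TCACNCCAC, the E-box CACGTG, the antioxidant response element core TGACNNNGC and the kappa B motif (GGG, then 5 bases of any kind, then CC). Hmgcs1 lies at chr13:119690101-119690400 (plus strand), Me1 at chr9:86695865-86696164 (minus strand) and Elovl6 at chr3:129532136-129532435 (plus strand).
Hmgcs1: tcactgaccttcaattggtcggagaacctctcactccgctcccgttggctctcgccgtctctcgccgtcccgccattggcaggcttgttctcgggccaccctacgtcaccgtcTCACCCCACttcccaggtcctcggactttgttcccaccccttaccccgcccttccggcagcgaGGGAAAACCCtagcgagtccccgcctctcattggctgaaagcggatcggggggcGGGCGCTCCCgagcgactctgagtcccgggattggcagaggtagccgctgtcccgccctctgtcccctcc
Me1: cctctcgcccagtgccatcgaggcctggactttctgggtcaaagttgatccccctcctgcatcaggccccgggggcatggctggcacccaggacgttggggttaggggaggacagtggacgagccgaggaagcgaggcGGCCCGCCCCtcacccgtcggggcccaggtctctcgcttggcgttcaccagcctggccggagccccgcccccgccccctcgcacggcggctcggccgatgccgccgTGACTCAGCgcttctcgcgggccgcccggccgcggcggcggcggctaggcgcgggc
Elovl6: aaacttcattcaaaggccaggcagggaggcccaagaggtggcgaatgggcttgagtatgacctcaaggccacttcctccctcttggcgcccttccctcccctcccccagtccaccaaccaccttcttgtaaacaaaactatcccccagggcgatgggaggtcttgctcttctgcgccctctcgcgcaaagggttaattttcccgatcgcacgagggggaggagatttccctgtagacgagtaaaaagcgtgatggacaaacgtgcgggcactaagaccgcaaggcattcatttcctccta

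The Hmgcs1 window held 1 match to the letters of the sterol regulatory element, the only such match among the 27 genes, beside 1.24% of all 32851 promoters of the table. It also held 2 kappa B matches, 4 CCAAT boxes (CCAAT) and 3 GC boxes (GGGCGG), 1 of which overlaps a kappa B match. The Me1 window held 1 match to the antioxidant response element core, found in 3 of the 27 genes and in 12.4% of all promoters. It also held 1 kappa B match, which overlaps 1 of its 4 GC boxes. The Elovl6 window held no match to any of these motifs, which says only that these letters are not in this window. Over the 27 genes, the CCAAT box was in 21 (77.8%, beside 37.4% of all promoters) and the GC box in 19 (70.4%, beside 35.7%). The kappa B motif was in 21 (77.8%, beside 50.8%) and the E-box in 5 (18.5%, beside 7.15%). These are unlike sets. Each of the 27 genes entered with 1 promoter, at the start nearest its 5′ end, and the background with every promoter of the table, whether or not its gene was expressed here. A match is a description of letters and shows no binding. Variants of these letters and sites outside the windows were not sought, so a gene without a match may still hold such an element.

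Of the 6 genes of the mevalonate arm, 1 was called in C59A. Hmgcs1 (chr13:119690379-119708260), which condenses acetyl-CoA and acetoacetyl-CoA in the cytosol, stood at 243, 239 and 195 CPM in WT, at 381, 437 and 509 in C59A, and at 283, 228 and 242 in C59S. All 3 C59A libraries lay above all 6 others, and the WT and C59S libraries overlapped. Mean levels (± SD, n = 3) were 226 ± 26.4 CPM for WT, 442 ± 64 for C59A and 251 ± 28.6 for C59S. Hmgcs1 rose in C59A by 0.97 ± 0.16 on the log2 scale (SE, 1.96-fold, adjusted p = 0.00497), a call kept in all 6 fits that left out 1 library. Against C59S it was higher by 0.82 ± 0.16 (adjusted p = 0.0144), but this call was lost without C59A replicate 3 (0.0542), C59S replicate 2 (0.0653) or C59S replicate 3 (0.0731), and with the adipocyte marker sum as a covariate (0.0674). The difference of C59S from WT was 0.16 ± 0.16, with a 95% interval of -0.19 to 0.5.

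None of the 5 later genes of the mevalonate arm was called in any comparison. Mvk and Pmvk, the kinases of mevalonate and phosphomevalonate, stayed between 5.58 and 12.3 CPM in the 9 libraries. Mvd, the decarboxylase that makes isopentenyl diphosphate, spanned 37.4 to 54.8 CPM and was 0.31 ± 0.12 higher in C59A than in C59S (adjusted p = 0.144). Idi1, the isomerase that follows, was at 0.632 to 1.66 CPM in WT and at 1.98 to 2.11 in C59A, a difference of 0.96 ± 0.43 with an adjusted p of 0.23. Fdps, which makes farnesyl diphosphate, held only 74 reads in all 9 libraries, and its difference in C59A was -1.75 ± 0.79 (adjusted p = 0.23). Of the 50-base stretches of the longest Fdps transcript 86.4% also occur in transcripts of 8 other genes, 7 of them processed pseudogenes, and 1 of these, Gm3571, held 185 reads. For Idi1 the share was 21.3%, in 4 processed pseudogenes. The counts of Fdps and Idi1 are therefore uncertain.

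The 11 genes that lead from squalene to cholesterol held 1 call in the 3 comparisons. Fdft1 (chr14:63145150-63179578), which joins farnesyl units into squalene, stood at 20.7, 25.2 and 26.1 CPM in WT, at 13.2, 21.1 and 15.3 in C59A, and at 26.3, 26.8 and 31 in C59S. The C59A libraries lay below all C59S libraries, and C59A replicate 2 fell within the WT range. Fdft1 was lower in C59A than in C59S by 0.76 on the log2 scale (log2 fold change -0.76 ± 0.17, adjusted p = 0.0277). This call was lost without C59A replicate 1 (0.103), C59A replicate 3 (0.106), C59S replicate 2 (0.0657) or C59S replicate 3 (0.112), and with the mitochondrial share (0.0574) or the adipocyte marker sum (0.0921) as a covariate. Against WT, Fdft1 differed by -0.54 ± 0.17 in C59A (adjusted p = 0.0982, but 0.0221 with library totals alone, 0.0412 with no filter on low counts and 0.0227 without C59A replicate 2) and 0.23 ± 0.17 in C59S (adjusted p = 0.508). A processed pseudogene, Gm6781, shares 10.9% of the 50-base stretches of Fdft1 but held 7 reads beside 4211.

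Sqle, the squalene epoxidase and a rate-limiting step, stood at 32.9, 29.8 and 17.7 CPM in WT, at 41.1, 48.3 and 40.1 in C59A, and at 48.3, 18.9 and 21.8 in C59S. The C59A libraries lay above all WT libraries, while the C59S libraries spanned most of the range of both. Its log2 difference in C59A was 0.69 ± 0.36 (adjusted p = 0.319), with a 95% interval of -0.12 to 1.5. With the adipocyte marker sum as a covariate it was 1.41 (adjusted p = 0.047). Between the alleles the difference of 0.54 ± 0.36 (adjusted p = 0.419) became 1.09 (adjusted p = 0.0297) without C59S replicate 1. Tm7sf2, a sterol reductase late in the route, stood at 21.9, 21.8 and 26 CPM in WT, at 20.8, 19.7 and 18.8 in C59A, and at 21.8, 17.4 and 15.3 in C59S. Its values were -0.23 ± 0.15 in C59A (adjusted p = 0.395) and -0.35 ± 0.15 in C59S (adjusted p = 0.241). The WT libraries lay above those of both alleles, although WT replicate 2 and C59S replicate 1 both rounded to 21.8 CPM.

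Cyp51, the lanosterol demethylase, varied widely within groups: 80.7, 184 and 53.8 CPM in WT beside 87.1 to 123 in C59A and 74.5 to 153 in C59S. Hsd17b7, a ketoreductase of the sterol demethylation steps, was at 8.81 to 13 CPM in WT, 12.4 to 18.6 in C59A and 9.79 to 10.9 in C59S. Its log2 difference from WT was 0.6 ± 0.2 in C59A (adjusted p = 0.103, but 0.0381 without WT replicate 2). The other 6 genes of this arm, Lss, Msmo1, Nsdhl, Ebp, Sc5d and Dhcr7, spanned 11 to 87.6 CPM and had adjusted p-values over 0.05 in all 3 comparisons.

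**Figure D3:**
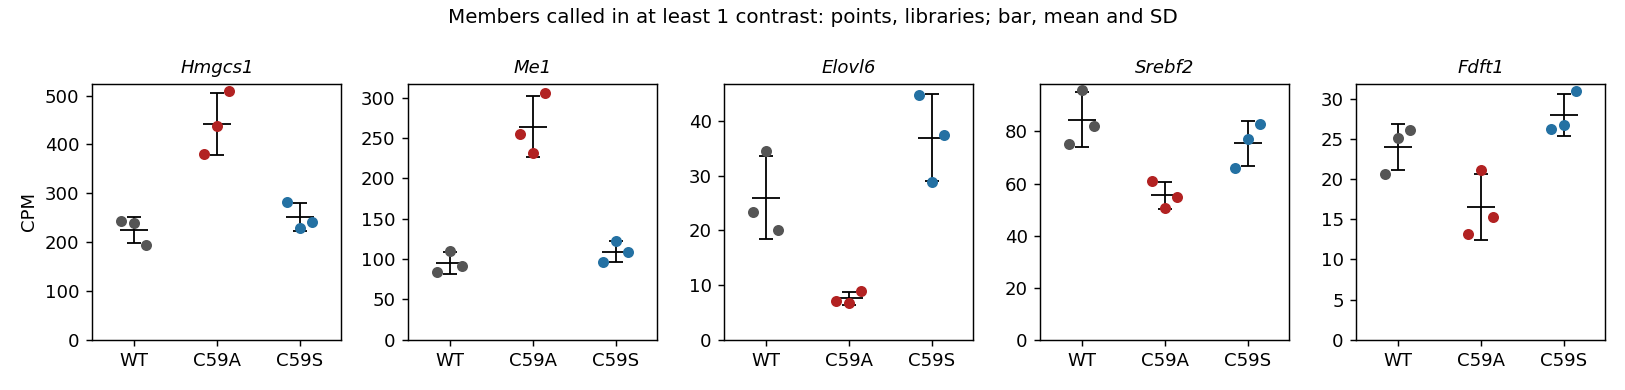
CPM of the 5 genes called in at least 1 comparison, with 1 point per library, grouped by genotype on the x axis, and bars at the mean with its SD. Hmgcs1 and Me1 are higher in all 3 C59A libraries than in the 6 others, and Elovl6 is lower.

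Of the 5 regulators, 1 was called. Srebf2 (chr15:82147266-82205376), which encodes the SREBP that mainly drives cholesterol genes, stood at 75.2, 96.1 and 82.3 CPM in WT, at 61, 50.6 and 54.7 in C59A, and at 66, 77.3 and 82.9 in C59S. The C59A libraries lay below all others, and the WT and C59S libraries overlapped. Srebf2 fell in C59A by 0.61 on the log2 scale (log2 fold change -0.61 ± 0.14, adjusted p = 0.0227). Leaving out WT replicate 2 ended the call (adjusted p = 0.074), as did leaving out C59A replicate 2 (0.0731) or replicate 3 (0.079). It was also lost with the mitochondrial share (0.0732) or the adipocyte marker sum (0.0866) as a covariate, with log2 fold changes of -0.63 and -0.73. Against C59S the value was -0.44 ± 0.14 (adjusted p = 0.0792).

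Srebf1, whose SREBP mainly drives fatty acid genes, stood at 49.3, 54.7 and 43 CPM in WT, at 37.8, 39 and 41.9 in C59A, and at 48.4, 45.6 and 62 in C59S. Its C59A libraries also lay below all others. The log2 difference was -0.31 ± 0.14 against WT (adjusted p = 0.235, but 0.0483 with library totals alone). Against C59S it was -0.39 ± 0.14 (adjusted p = 0.125). Neither INSIG gene, the brakes of the system, was called. Insig1 stood at 16.9, 25.9 and 18.5 CPM in WT, at 16, 21.8 and 19 in C59A, and at 16.3, 22.6 and 24.4 in C59S, so all 3 groups overlapped. Its difference in C59A was -0.11 ± 0.2, with a 95% interval of -0.54 to 0.33.

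Insig2 stood at 21.4, 25.5 and 20.8 CPM in WT, at 25.1, 25.2 and 28.3 in C59A, and at 25, 25 and 24.2 in C59S, with 0.22 ± 0.12 in C59A against WT (adjusted p = 0.328). WT replicate 2 lay within the range of the C59A libraries. Scap, the SREBP escort, spanned 55.8 to 75.4 CPM in the 9 libraries. Stard4, which carries cholesterol between membranes, was at 43.8 to 47.5 CPM in WT and 36.1 to 39.4 in C59A, without overlap, with a log2 difference of -0.27 ± 0.11 (adjusted p = 0.165).

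Among the 5 genes that supply and build the fatty acid chain, Me1 was called in both comparisons with C59A. Me1 (chr9:86581371-86695953), the cytosolic malic enzyme, stood at 83.8, 110 and 91.7 CPM in WT, at 255, 231 and 306 in C59A, and at 96.6, 122 and 109 in C59S. Each C59A library was above every other library, with means of 95.2 ± 13.6, 264 ± 38.2 and 109 ± 12.5 CPM in WT, C59A and C59S. Me1 rose in C59A by 1.47 ± 0.16 against WT (2.77-fold, adjusted p = 0.000333) and was higher than in C59S by 1.28 ± 0.16 (2.42-fold, adjusted p = 0.000981). No left-out library ended either call. In C59S the difference from WT was 0.19 ± 0.16 (95% interval -0.15 to 0.54). Processed pseudogenes share 26.5% of the 50-base stretches of Me1, and Gm7329, 1 of the 2, held 32 reads beside 27713. No counts were found for the other, Gm7049, so its part in the Me1 counts is unknown.

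None of the other 4 genes of this group was called. Fasn, the fatty acid synthase, stood at 47.1, 58.1 and 41.3 CPM in WT, at 41.7, 43 and 40.1 in C59A, and at 43.8, 72 and 74.2 in C59S. The C59A libraries lay below all C59S libraries and within or just below the WT range. The log2 differences were -0.23 ± 0.19 in C59A against WT (adjusted p = 0.537), 0.37 ± 0.19 in C59S against WT (adjusted p = 0.326) and -0.6 ± 0.19 between the alleles (adjusted p = 0.0899). The 2 high C59S values are those of the libraries with the highest adipocyte sums, and C59S replicate 1 lay within the WT range. Without C59S replicate 1 the difference between the alleles was -0.81 (adjusted p = 0.0123).

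Acaca, the acetyl-CoA carboxylase of the cytosol, followed the same order, at 17.1 to 20.8 CPM in WT, 10.9 to 17.3 in C59A and 17.4 to 27.3 in C59S. Its difference between the alleles was -0.63 ± 0.2 (adjusted p = 0.0959). A processed pseudogene shares 52.6% of its 50-base stretches, so its counts are uncertain. Acly, which cleaves citrate to acetyl-CoA, and Acacb, the mitochondrial carboxylase, spanned 29.7 to 70.2 CPM, with no adjusted p under 0.05.

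Of the 6 elongation and desaturation genes, Elovl6 was called in C59A. Elovl6 (chr3:129532355-129638495), which extends palmitate to stearate, stood at 23.3, 34.5 and 20 CPM in WT, at 7.12, 6.69 and 8.87 in C59A, and at 44.7, 28.8 and 37.4 in C59S. Every C59A library lay below the lowest of the others, while WT replicate 2 fell among the C59S libraries. The means were 25.9 ± 7.59, 7.56 ± 1.15 and 37 ± 7.96 CPM in WT, C59A and C59S. Elovl6 fell in C59A by 1.77 on the log2 scale against WT (log2 fold change -1.77 ± 0.23, adjusted p = 0.00159) and was also lower than in C59S (-2.29 ± 0.23, adjusted p = 0.000311). Neither call was lost when any 1 library was left out. In C59S against WT the difference was 0.51 ± 0.22 (unadjusted p = 0.0365, adjusted p = 0.246). Elovl6 lies on the chromosome of Nfkb1, 5.95 Mb from it. The only others of the 34 on that chromosome, Pmvk and Fdps, are 46.1 and 46.5 Mb away.

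Scd1, the stearoyl-CoA desaturase that makes monounsaturated fatty acids, stood at 112, 296 and 67.7 CPM in WT, at 82.5, 106 and 110 in C59A, and at 352, 384 and 302 in C59S. All C59S libraries lay above all others, but WT replicate 2, at 296 CPM, came close to the lowest of them. The log2 difference in C59S was 1.13 ± 0.46 against WT (unadjusted p = 0.0388, adjusted p = 0.253), and without WT replicate 2 it was 1.94 (adjusted p = 0.0622). Between the alleles it was -1.8 ± 0.47 (adjusted p = 0.0639). Fitted with those 6 libraries alone, edgeR gave an adjusted p of 0.000333 for the same difference, and DESeq2 gave 0.0131. C59S replicate 1, at 352 CPM, had an adipocyte marker sum of 163 CPM, below those of all 3 C59A libraries. Fabp4 alone made up 149 CPM of this sum, and 160 of the 174 CPM in C59A replicate 2. The other adipocyte markers differed in both directions between these libraries. The part of adipocytes in the Scd1 values was not tested.

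Scd2, its paralog on chromosome 19, stood at 55.5, 57.5 and 80.5 CPM in WT, at 49, 50.7 and 55.1 in C59A, and at 68.9, 75.2 and 73.6 in C59S. The C59A libraries lay below all others, and WT replicate 3 was the highest of the 9. The difference between the alleles was -0.49 ± 0.14 (adjusted p = 0.0704), and DESeq2 gave 0.0444 for it. Elovl5, which extends polyunsaturated fatty acids, stood at 33.1, 48.1 and 39.8 CPM in WT, at 44.8, 43.7 and 42.7 in C59A, and at 45.4, 54.9 and 54.1 in C59S. Its difference in C59S was 0.35 ± 0.14 (unadjusted p = 0.0289, adjusted p = 0.229), and WT replicate 2 lay among the C59S libraries. The desaturase genes Fads1 and Fads2 spanned 8.13 to 76.9 CPM and were highest in WT replicate 2, with no adjusted p under 0.05.

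**Figure D4:**
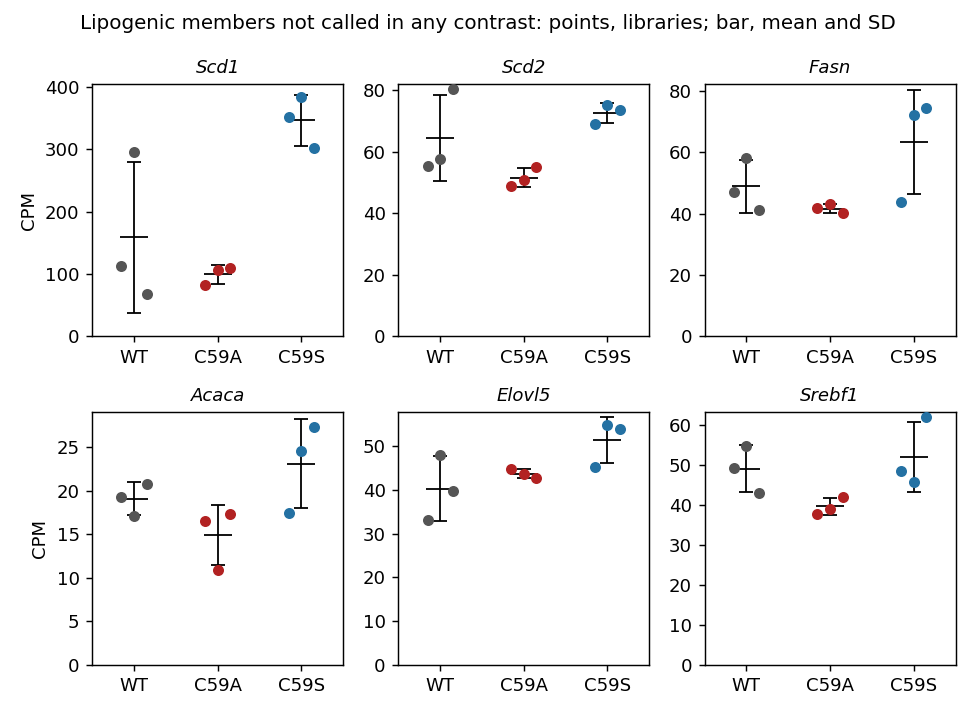
CPM of Scd1, Scd2, Fasn, Acaca, Elovl5 and Srebf1, which were not called, with 1 point per library grouped by genotype on the x axis and bars at the mean with its SD. Scd1 and Fasn spread widely, and WT replicate 2 is the highest WT library in both (296 and 58.1 CPM).

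The pattern over the 34 genes varied with single libraries. WT replicate 2 lay above the mean of the 9 libraries for 28 of the 34 genes, with a median deviation of 0.15 on the log2 scale. C59A replicates 1 and 3 lay below that mean for 24 and 23 genes, and C59A replicate 2 for 15. Without WT replicate 2 the median fold change of the 34 genes in C59A against WT moved from -0.15 to -0.01, with 18 negative, and without C59A replicate 1 it also moved to -0.01, with 17 negative. For the 11 fatty acid genes the median deviation was -0.15, -0.21 and -0.17 in the C59A libraries and -0.08, 0.29 and 0.25 in the C59S libraries. The latter pair of high values belongs to the libraries with the highest adipocyte sums. The part of the adipocyte signal in these values was not tested.

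**Figure D5:**
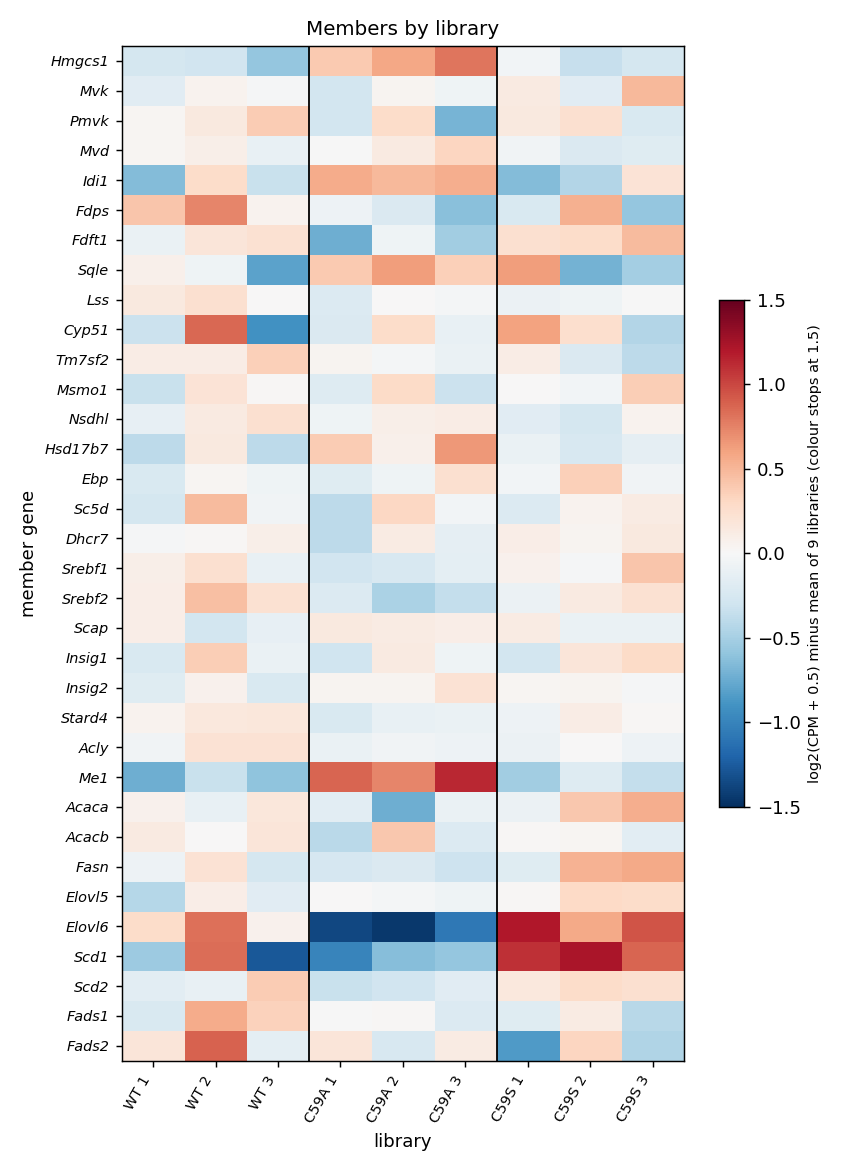
Level of each of the 34 genes (rows) in each library (columns) as log2(CPM + 0.5) minus the mean of the 9 libraries, with colours ending at 1.5. WT replicate 2 is above the mean for 28 genes, and the C59A columns stand out for Hmgcs1 and Me1 above the mean and Elovl6 below it.

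Summed over the 17 cholesterol enzymes, transcripts reached 663 ± 107 CPM (SD, n = 3) in WT, 884 ± 95.6 among C59A and 697 ± 71.5 among C59S libraries, sums in which Hmgcs1 is the largest term. Of these 17 genes 1 (5.88%) was called in C59A against WT, beside 5.7% of all genes, with a median log2 fold change of -0.06, and 2 (11.8%) between the alleles, beside 5.91%. Over the 11 fatty acid genes the sums were 644 ± 167, 684 ± 42.9 and 859 ± 67.5 CPM, led by Scd1 and Me1. Of these 11 genes 9 had negative fold changes in C59A against WT, beside 52.4% of all genes, with a median of -0.32, and 2 (18.2%) were called, beside 5.7%. The groups did not overlap for 4 of the 34 genes higher and 9 lower in C59A than in WT, beside 12.6% and 12% of all genes. In C59S against WT they did not overlap for 2 higher and 2 lower, beside 22.5% of all genes in either direction. Between the alleles, 6 were higher and 10 lower without overlap, beside 29.3% of all genes.

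Neighbouring steps of the pathway were read from further lists. None of the 5 other cholesterol enzymes tested was called in C59A against WT. None of the 8 genes listed for SREBP cleavage and degradation was called. The smallest adjusted p was that of Ubxn8 (0.43 ± 0.15, adjusted p = 0.111), which is not an established gene of these steps. None of the 12 genes of sterol uptake, traffic and esterification was called either.

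Of 7 genes of the sterol-sensing LXR receptors and their targets, 2 rose and 1 fell in C59A against WT, beside 3.24% and 2.46% of all genes. Apoe, the apolipoprotein that carries cholesterol in lipoproteins, stood at 674, 804 and 1040 CPM in WT, at 365, 392 and 351 in C59A, and at 567, 722 and 914 in C59S. It was lowest in all 3 C59A libraries and fell by 1.18 on the log2 scale against WT (-1.18 ± 0.21, adjusted p = 0.00716), a call that no left-out library ended. Nr1h3, an LXR, and Lpcat3, a phospholipid acyltransferase, rose by 0.48 ± 0.12 and 0.57 ± 0.14 (adjusted p = 0.0397 and 0.0382). These calls were lost in 5 and 4 of the 6 fits that left out 1 library, with adjusted p up to 0.145.

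Of 18 further genes of fatty acid synthesis, 3 rose and 1 fell in C59A against WT, beside the same 3.24% and 2.46% of all genes. Acss2, which makes acetyl-CoA from acetate, stood at 109, 126 and 98.1 CPM in WT, at 192, 220 and 184 in C59A, and at 93.8, 110 and 84.7 in C59S. All C59A libraries lay above all others, and Acss2 rose by 0.84 ± 0.14 against WT (adjusted p = 0.00627) and was 1.05 ± 0.15 higher than in C59S (adjusted p = 0.00197), with neither call lost when a library was left out. Hacd2, a dehydratase of the elongation cycle, rose by 0.78 ± 0.15 (adjusted p = 0.0114), a call lost without WT replicate 1 (0.0535). G6pdx, another source of NADPH, rose by 0.44 ± 0.11 (adjusted p = 0.0429) and the elongase Elovl2 fell by 1.29 on the log2 scale (-1.29 ± 0.29, adjusted p = 0.0299). Their calls were lost in 6 and 4 of the 6 fits that left out 1 library, with adjusted p up to 0.133 and 0.115. None of 6 genes of glycerolipid synthesis and storage was called.

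None of the 56 genes of these lists was called by edgeR in C59S against WT. Thrsp, a regulator of fatty acid synthesis abundant in adipose tissue, stood at 3.54, 2.06 and 5.24 CPM in WT and at 7.39, 24.8 and 38.7 in C59S, with 2.69 ± 0.58 (adjusted p = 0.13). Its 2 highest libraries are the 2 with the highest adipocyte sums. Mlxipl, the carbohydrate-responsive factor ChREBP, stood at 500, 423 and 313 CPM in WT and at 217, 229 and 241 in C59S, with -0.85 ± 0.19 (adjusted p = 0.121). DESeq2 called 4 of the 56 genes, Thrsp (adjusted p = 0.00268), Mlxipl (0.00175), Agpat2 (0.0133) and Gpam (0.0427). The block fit of the WT and C59S libraries, whose pairing is uncertain, called 3, Mlxipl (0.0489), Agpat2 (0.0466) and Vldlr (0.0438). Between the alleles, 9 of the 56 genes (16.1%) were called, 7 higher and 2 lower in C59A, beside 5.91% of all genes.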

How the data were processed

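Mouse kidney RNA was extracted with TRIzol, and the NEBNext Ultra RNA kit was used for sequencing libraries, per the labels' protocols. The submitters' processing notes name the build GRCm38 and the tools CASAVA 1.8, fastp, DESeq2 1.20.0, featureCounts 1.5.0-p3 and HISAT2 2.0.5. The annotation release, strand setting and treatment of reads with several matches were not given in the sources used here. The deposited counts are raw whole numbers per gene, as the authors left them. The deposited FPKM values equal those counts divided by gene length and 1 constant per library.

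The 34 members and all lists were chosen with earlier results of these data known, so no p-value is given over a list. Libraries were grouped by the genotype label. No 2 libraries of a genotype were duplicates, since their counts differed by a chi-square per degree of freedom of 22.3 to 123. Counts were filtered with filterByExpr, scaled by TMM and fitted in 1 model of 9 libraries with edgeR 4.0.16 in R 4.3.3 (robust quasi-likelihood, Benjamini-Hochberg over 17114 genes, threshold 0.05). The SE of a log2 fold change was derived from the F statistic. The script was tested on simulated data. Values in every sample are given for called members, the 3 of smallest p where none was called (Elovl5, Tm7sf2 and Elovl6), and for Sqle, the SREBP and INSIG genes, Fasn, Scd1 and Scd2. Pathway genes are named where called or of small p. Some genes of these lists are not reported here. Shared 50-base stretches were sought in GENCODE M21 transcripts. Deviations of same-numbered libraries from their group means correlated at 0.195 to 0.318 between WT and C59S, over 0.1 in all 3 pairs. There the numbers were taken to pair libraries, from the data and not the labels. With C59A, same-numbered libraries correlated at -0.288 to 0.05 and were not taken as pairs. Unlike-numbered libraries reached 0.294, between C59A replicate 2 and C59S replicate 1. The submitters' own sample names number the libraries differently. The only WT and C59S libraries that share such a number, WT replicate 3 and C59S replicate 2, correlated at 0.009. The pairing is therefore uncertain. Alternatives changed 1 choice at a time, with limma 3.58.1 on log2(FPKM + 1) or log2(FPKM + 0.1) and DESeq2 1.42.0 among them, and 2 (C59S replicates 2 and 3 left out, which leaves 1 C59S library, and the paired fit of WT and C59S) were added after seeing the data. Depth limits counting error only, at a floor of 3 counts.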

Additional observations from a re-analysis of the deposited data

Results flagged for a closer look

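By edgeR's test with Benjamini-Hochberg adjustment, the C59A and C59S libraries differed for 4 of the 34 genes (11.8%). In the neighbouring lists they differed for 9 of 56 genes (16.1%). Of all genes 5.91% differed. Since both genotypes are measured against the same WT libraries, the difference between their fold changes is this same contrast. In it the allele and the difference in Xist and Y-linked transcripts cannot be told apart. Among the 34, Me1 was 1.28 higher and Hmgcs1 0.82 higher in C59A on the log2 scale, and Fdft1 (-0.76) and Elovl6 (-2.29) were lower. The calls of Hmgcs1 and Fdft1 were lost without single libraries, with adjusted p up to 0.0731 and 0.112.

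Outside the 34, Acss2, the acetyl-CoA synthetase, was 1.05 higher in C59A (adjusted p = 0.00197) in a call that held in all 6 fits without 1 library. The elongation dehydratases Hacd2 (0.81, adjusted p = 0.0113) and Hacd3 (0.42, 0.0469), the ChREBP gene Mlxipl (0.94, 0.0161) and the phosphatidate phosphatase Lpin1 (0.72, 0.0196) were also higher. So were Lbr (0.76, 0.0492), a sterol reductase of the nuclear envelope, and Lpcat3 (0.59, 0.0339). Apoe (-0.99, 0.0196) and Elovl2 (-1.49, 0.0178) were lower. Each of these 8 calls was lost in at least 1 of 6 fits without 1 library: in 1 for Hacd2, 2 for Elovl2, 3 for Mlxipl and Lpin1, 4 for Apoe, 5 for Hacd3 and Lpcat3 and all 6 for Lbr. The C59A libraries also differ from the C59S libraries in Xist and Y-linked transcripts, and the allele and that difference cannot be told apart.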

How the results depend on the processing

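The calls of Me1 and Elovl6 in both comparisons with C59A, and of Hmgcs1 against WT, held in the fits of every alternative that gave them a value. The number of the 34 genes called in C59A against WT ran from 3 to 6, and in C59S against WT it was 0 throughout. Between the alleles it was 7 with no filter on low counts, and 2 with the adipocyte marker sum as a covariate or without both C59S replicates 2 and 3, and 2 to 7 when 1 library was left out. The cause of these changes was not tested. With library totals alone in place of TMM, the median of all genes moved to -0.26 in C59A and -0.19 in C59S against WT, and fold changes there are to be read against that shift.

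Over all genes, the calls in C59A against WT numbered 1567 by DESeq2, 434 and 325 with the mitochondrial share or adipocyte sum as a covariate, 475 by limma on FPKM with no filter, and 502 to 852 when 1 library was left out. In C59S against WT they numbered 20 with library totals alone, 308 with no filter, 636 by DESeq2, 2 by limma with no filter, 1 without C59S replicates 2 and 3, and 0 to 737 when 1 library was left out (737 without WT replicate 3). Between the alleles they numbered 670 with library totals alone, 1721 by DESeq2, 517 and 403 with the covariates, 663 and 670 by limma with pseudocounts 1 and 0.1, 311 by limma with no filter, 125 without C59S replicates 2 and 3, and 318 to 1006 when 1 library was left out.

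Over all alternatives, 116 of 2022 values of the 34 genes turned sign, none with an adjusted p under 0.05. Those of the genes described sample by sample follow. In C59A against WT these were Insig2 (-0.02) and Elovl5 (-0.11) with library totals alone and Tm7sf2 (0.02) with the adipocyte covariate, and, when 1 library was left out, Insig1 (-0.23 to 0.1), Elovl5 (-0.01 to 0.26) and Scd1 (-1.03 to 0.14). In C59S against WT they were, with library totals alone, Hmgcs1 (-0.04), Sqle (-0.02), Srebf1 (-0.13), Insig1 (-0.16), Insig2 (-0.06) and Scd2 (-0.03). With the mitochondrial covariate they were Srebf1 (-0.15) and Insig1 (-0.14), and with the adipocyte covariate Tm7sf2 (0.05), Srebf1 (-0.11), Insig1 (-0.27), Me1 (-0.03), Fasn (-0.2) and Scd2 (-0.01). Without C59S replicates 2 and 3, which leaves 1 C59S library assumed to vary like the other groups, they were Srebf1 (-0.02), Insig1 (-0.33) and Fasn (-0.16), and with 1 library left out Sqle (-0.4 to 0.4), Srebf1 (-0.06 to 0.17) and Insig1 (-0.07 to 0.25). Between the alleles they were Tm7sf2 with the adipocyte covariate (-0.03), and Sqle (-0.16), Tm7sf2 (-0.14) and Insig1 (0.22) without C59S replicates 2 and 3.

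The same replicate numbers occur in each genotype. With the number as a block in the fit of all 9 libraries, 1004, 0 and 972 genes were called in the 3 comparisons, and 4, 0 and 5 of the 34, the added one being Scd2 between the alleles (-0.5, with an adjusted p that rounds to 0.05). With the block in a fit of WT and C59S alone, 638 genes were called and none of the 34. Each WT library correlated best with the C59S library of its own number, but this pairing was read from the data and is uncertain. Depth, at 3 counts per 0.112 to 0.202 CPM, limits Fdps most among the 34, at 0.0477 to 0.905 CPM.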
